A study of Mus musculus with 12 samples.

Results

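Replication-dependent histone genes were read from a total RNA count matrix of mouse embryonic stem cells differentiated towards endoderm or mesoderm. The members were all genes of the matrix whose symbol begins with Hist1h, Hist2h, Hist3h or Hist4h, which gave 69 of the 19680 genes listed. By histone type they comprised 6 genes of H1, 19 of H2A, 19 of H2B, 12 of H3 and 13 of H4. By cluster they comprised 55 genes of Hist1, 10 of Hist2, 3 of Hist3 and 1 of Hist4. Of the 69, 68 passed the filter on low counts and were tested, and Hist2h2be, an H2B gene known from olfactory neurons, was not.

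Replication-dependent histone genes encode the bulk of the histones that package new DNA, and their mRNAs accumulate in S phase. These mRNAs end in a conserved stem-loop in place of a poly(A) tail, and the stem-loop binding protein holds them through processing, translation and decay. H2A, H2B, H3 and H4 form the nucleosome core, and H1 binds the linker DNA between cores. The genes lie in clusters in many near-identical copies, and a library made from rRNA-depleted total RNA can hold their transcripts where a poly(A)-selected library would lose them.

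The cells were of the mouse embryonic stem cell line CJ9, in its wild type form or labelled arid4b∆, and were collected on day 5 of differentiation towards either lineage. The Arid4b protein belongs to SIN3-HDAC complexes, which act on chromatin. Each of the 4 groups (wild type endoderm, arid4b∆ endoderm, wild type mesoderm, arid4b∆ mesoderm) had 3 libraries, and the labels say neither whether these came from separate cultures nor whether arid4b∆ is 1 clone, so that a p-value reflects the library spread, which may be technical. Library totals lay between 10351074 and 35660107 counts, of which 1949299 to 6678892 remained without the ribosomal RNA precursor Rn45s. The members held 1.13% to 2.43% of those remaining counts. Whole-gene counts of Arid4b were 41.0 ± 3.97 CPM in wild type and 46.2 ± 4.27 CPM in arid4b∆ endoderm (SD, n = 3), and 42.0 ± 4.77 and 44.6 ± 2.96 CPM in mesoderm, so that these counts do not check the deletion and every direction rests on the labels. In wild type libraries the endoderm factor Foxa2 stood at 24.4 CPM in endoderm and 0.557 in mesoderm, while the mesoderm factor T stood at 46.3 and 219 CPM. In arid4b∆ libraries Foxa2 stood at 0.617 and 0.364 CPM and T at 1.11 and 4.71 CPM. Of a panel of 15 lineage and pluripotency genes, 12 were lower and 1 higher in arid4b∆ endoderm, and 10 lower and 1 higher in arid4b∆ mesoderm, and the part of this in the histone values was not tested. CPM are counts scaled by library size without Rn45s and by edgeR's normalisation factor of each library, and values of different genes are not compared here because they are not per length.

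The Hist1 genes were annotated on chromosome 13, where 54 of the 55 lay between 21715711 and 23934913 in the mouse build GRCm38.p6. Hist1h2al, an annotated pseudogene, lay elsewhere on chromosome 13. The Hist2 genes lay on chromosome 3 (96219885 to 96270192), the Hist3 genes on chromosome 11 (58948911 to 58955192) and Hist4h4 on chromosome 6 (136803993 to 136804431). In all 12 libraries the H2B genes Hist1h2bq and Hist1h2br had equal counts, as did the H3 genes Hist2h3c1 and Hist2h3c2. Hist1h2ao and Hist1h2ap differed by 2 counts in 1 library, as did Hist2h2aa1 and Hist2h2aa2, and were equal in the other 11. Genes with equal or nearly equal counts are not separate measurements.

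The feature that names the class could be read from GENCODE transcripts, which ran at least 16 bases, the length of the stem-loop, past the stop codon for 52 members. Only 1 transcript per gene was searched, the protein-coding one with the longest coding sequence, and the shortest transcript where several tied. A perfect 16-base stem-loop of 6 paired bases and a 4-base loop that matched the histone form was found after the stop codon in 45 of these 52, at 22 to 59 bases from it (median 32). It was found in 4 of 5 H1, 11 of 11 H2A, 9 of 14 H2B, 9 of 10 H3 and 12 of 12 H4 transcripts that could be searched. The same pattern occurred in 28 of 55380 other genes, or 0.0506%. Those genes, coding or not, were searched over the full length of all their transcripts, so their share is not a like measure. The forms found in more than 1 member are shown because they are what sets these mRNAs apart, with the 2 arms of the stem in capitals.

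Form of 25 members of H1, H2A, H2B and H3: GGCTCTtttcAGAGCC
Form of 7 members, all of H4: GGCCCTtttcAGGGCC
Form of 6 members of H1, H2B and H3: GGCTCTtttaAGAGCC
Form of Hist1h4i and Hist2h4: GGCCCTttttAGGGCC
Form of Hist1h4b and Hist1h4j: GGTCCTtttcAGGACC

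In the forms found, all 12 H4 transcripts differed in the stem from the other types, whose forms shared 1 stem and differed in the loop. The 7 transcripts without a match were Hist1h1a, Hist1h2bc, Hist1h2bp, Hist1h2bq, Hist1h2br, Hist2h2be and Hist2h3b. The Hist2h3b transcript ended 37 bases after the stop codon and could hold a match at the smallest distance found in another member but not at the others. For Hist1h2bq and Hist1h2br the searched transcript ran 823 bases past the stop codon, and no match to the pattern was in it. Its coding sequence was 405 bases long, against 381 for Hist1h2bk. Other annotated transcripts of the genes without a match were not searched, so these genes are not shown to lack a stem-loop.

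Promoter windows of 300 bases (250 before and 50 after the start, RefSeq, GRCm38.p6) were at hand for 62 members. CCAAT (or ATTGG on the other strand) was in 85.5% of the members' windows and 37.4% of all 32851 windows. TATAAA (or TTTATA) was in 56.5% against 13.6%. The octamer ATGCAAAT (or ATTTGCAT), a sequence read by POU factors such as Pou2f1, was in 22.6% against 1.74%, which were 7 windows of H2A and 7 of H2B and none of H1, H3 or H4. CCAAT was in every H1, H2A, H2B and H3 window and in 3 of the 12 H4 windows. Windows of neighbours can overlap: 20 of the 62 overlapped another member's window, among them 6 of the 14 with an octamer. Stretches of 150 bases before the start are shown for 5 members so that these differences between types can be seen, with the 3 motifs in capitals.

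Hist1h2bk, chr13:22035671-22035820, plus strand: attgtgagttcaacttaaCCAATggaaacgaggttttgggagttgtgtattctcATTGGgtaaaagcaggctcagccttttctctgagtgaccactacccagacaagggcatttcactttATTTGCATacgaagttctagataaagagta
Hist3h2a, chr11:58954535-58954684, plus strand: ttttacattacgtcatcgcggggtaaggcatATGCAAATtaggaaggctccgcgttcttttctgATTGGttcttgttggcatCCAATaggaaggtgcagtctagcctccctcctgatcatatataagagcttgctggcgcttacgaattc
Hist1h2aa, chr13:23934287-23934436, plus strand: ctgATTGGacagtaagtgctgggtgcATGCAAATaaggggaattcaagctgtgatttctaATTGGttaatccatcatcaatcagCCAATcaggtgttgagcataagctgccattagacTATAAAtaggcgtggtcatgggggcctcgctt
Hist1h1e, chr13:23622559-23622708, minus strand: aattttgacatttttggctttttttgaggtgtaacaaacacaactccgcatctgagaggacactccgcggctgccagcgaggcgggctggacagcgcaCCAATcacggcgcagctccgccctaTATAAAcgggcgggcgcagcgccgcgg
Hist1h4h, chr13:23530894-23531043, plus strand: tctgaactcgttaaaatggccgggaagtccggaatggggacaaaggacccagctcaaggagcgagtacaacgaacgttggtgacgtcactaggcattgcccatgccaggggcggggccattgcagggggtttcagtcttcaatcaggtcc

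Hist1h2bk carried an octamer 30 bases before its start, and Hist3h2a and Hist1h2aa carried theirs 119 and 124 bases before. Hist1h1e had CCAAT and TATAAA without an octamer, and the stretch of Hist1h4h held none of the 3. Among tested H2A and H2B members with a window, 11 of 14 with an octamer and 19 of 20 without one passed the test in endoderm, and 12 of 14 and 19 of 20 did in mesoderm. The 11 and the 12 both include Hist1h2aa, which was tested only through its arid4b∆ counts, so its calls support nothing. Median log2 fold changes in endoderm were 0.53 for the 14 members with an octamer and 0.55 for the 20 without one. In mesoderm they were 0.70 and 0.69 in the same order, with Hist1h2aa kept among the 14. These counts and medians were not tested against each other.

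Histone transcripts were more abundant in arid4b∆ than in wild type libraries in both lineages. In endoderm, 54 of 68 tested members were higher and 0 lower by edgeR's quasi-likelihood test at an adjusted p under 0.05, where 5.78% of all tested genes were higher and 6.92% lower. In mesoderm, 65 of 68 were higher and 0 lower, where 8.93% of all tested genes were higher and 10.2% lower. The median log2 fold change of the members was 0.56 in endoderm and 0.74 in mesoderm, beside medians over all 11635 tested genes of −0.0037 and 0.0071. Hist1h1t and Hist1h2aa passed the filter on low counts through arid4b∆ libraries alone, which favours a higher call, so their calls lend no support. Of the other 66 tested members, 53 were higher in endoderm and 63 in mesoderm, with medians of 0.56 and 0.73. All 68 fold changes lay above 0 in endoderm and 67 of 68 in mesoderm. Reads of near-identical genes may be shared between rows, so these counts are not counts of separate events.

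The 3 arid4b∆ libraries all lay above the 3 wild type libraries for 42 of 68 members in endoderm (14.7% of all tested genes) and for 65 of 68 in mesoderm (15.7%). Hist1h1t and Hist1h2aa are in both of these numbers and, tested only through their arid4b∆ counts, lend no support. The number of members called higher in endoderm, 54 as reported, rested on single libraries. It was 1 without wild type endoderm library 2, 19 without wild type library 3 and 6 without arid4b∆ library 1. All 68 fold changes stayed above 0 each time. These fits had no replicate block, and with the replicate number as a block the number called in endoderm was larger than as reported. Hist3h2a was the member called in endoderm under each of the 19 alternatives that were run for single members. In mesoderm 56 of the 65 called members kept their call under every such alternative. Hist1h1t and Hist1h2aa are among these 56 and again lend no support. The smallest count there was 56, without wild type mesoderm library 3.

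Summed over all members, the level was 15955, 11519.8 and 12717 CPM in the 3 wild type endoderm libraries and 24256, 17404 and 17169 in the arid4b∆ endoderm libraries. It was 14416, 14033 and 10042 CPM in wild type mesoderm and 23030.0, 21244 and 18409 in arid4b∆ mesoderm. Library 1 was the highest of its group in each of the 4 groups, and in both lineages every arid4b∆ library lay above every wild type library. The ratio of group means was 1.46 in endoderm and 1.63 in mesoderm, and 1.47 and 1.63 with equal rows counted once. In these bulk libraries, more cells in S phase and more histone RNA per cell cannot be told apart.

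**Figure D1:**
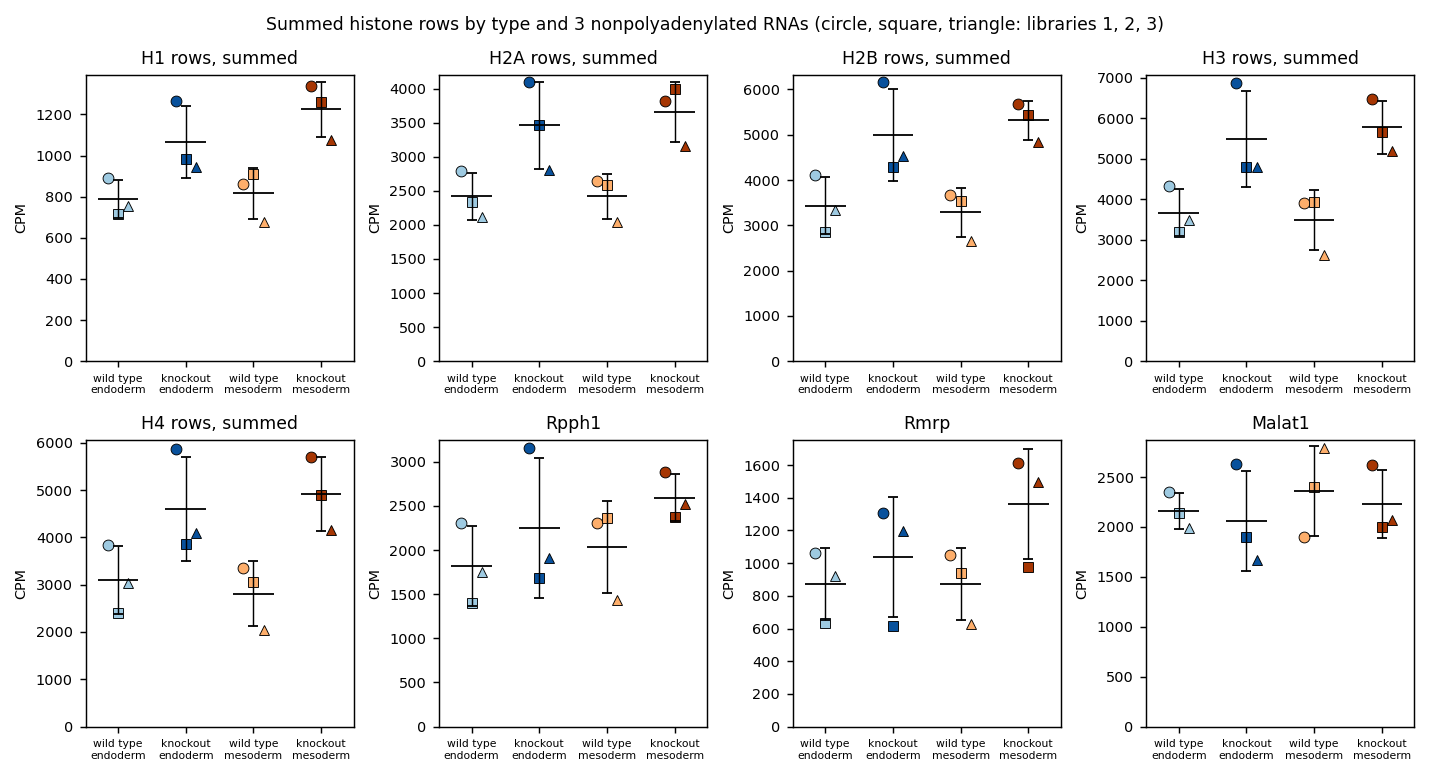
Summed level in CPM of the members of each histone type, and of the nonpolyadenylated RNAs Rpph1, Rmrp and Malat1, in each of the 12 libraries (circle, square and triangle for libraries 1, 2 and 3; horizontal bar, mean; whiskers, SD, n = 3). For all 5 types the 3 arid4b∆ (knockout) points lie above the 3 wild type points in both lineages, whereas Rpph1, Rmrp and Malat1 overlap in endoderm; in mesoderm the 3 arid4b∆ values of Rpph1 also lie above the 3 wild type values.

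By type, the ratio of summed levels was 1.35 for H1, 1.43 for H2A, 1.46 for H2B, 1.5 for H3 and 1.49 for H4 in endoderm. In mesoderm it was 1.5, 1.51, 1.62, 1.65 and 1.75 in the same order. By cluster, it was 1.49 and 1.66 for Hist1 (endoderm and mesoderm), 1.34 and 1.49 for Hist2, 1.71 and 1.79 for Hist3, and 1.30 and 1.48 for Hist4. Sums were not tested, and differences between types or clusters were not tested.

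**Figure D2:**
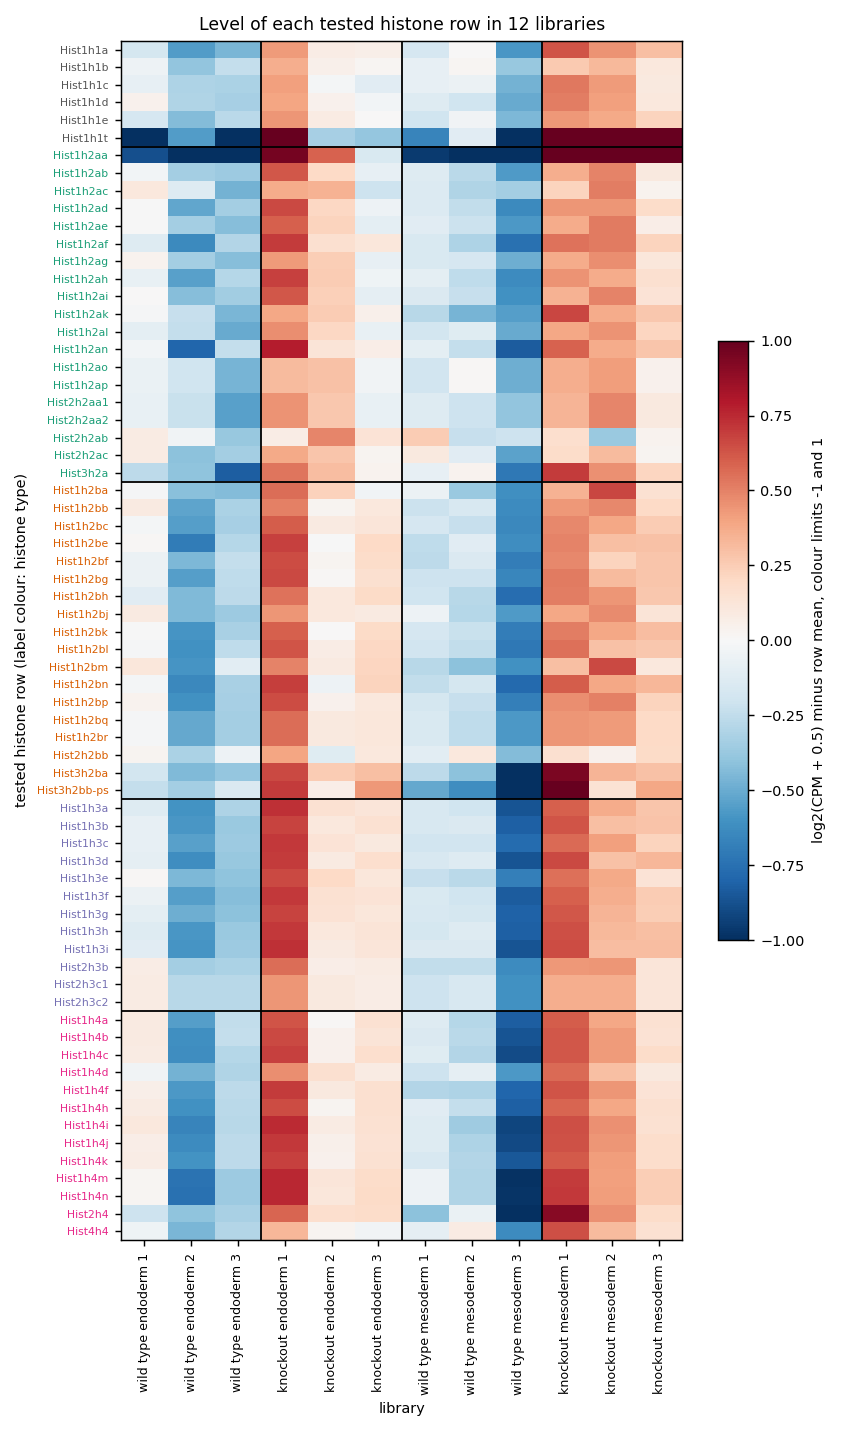
Level of each of the 68 tested members in the 12 libraries, as log2(CPM + 0.5) minus the mean over libraries, with colours limited at −1 and 1 and black lines between histone types and between groups. Columns of arid4b∆ (written knockout in the plots) are mostly red and those of the wild type groups mostly blue or, for endoderm library 1, near white; arid4b∆ endoderm library 1 is redder than the other endoderm libraries, and wild type mesoderm library 3 is the bluest of its group for most members.

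Of the H1 linker histone genes, 3 of 6 rose in endoderm and 6 of 6 in mesoderm, where Hist1h1t was tested only through its arid4b∆ counts. Hist1h1e (chromosome 13, 23621777 to 23622558) stood at 203, 168 and 189 CPM in wild type endoderm and at 311, 242 and 229 in arid4b∆ endoderm. In mesoderm it stood at 199, 223 and 167 CPM in wild type and 309, 296 and 266 in arid4b∆. In both lineages the lowest arid4b∆ library was above the highest wild type library. Its log2 fold change was 0.48 ± 0.12 (SE, edgeR adjusted p = 0.0107) in endoderm and 0.58 ± 0.12 (adjusted p = 0.00185) in mesoderm. The endoderm call was lost without wild type library 2 or without arid4b∆ library 1, with an adjusted p of up to 0.0841.

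Hist1h1d (chromosome 13, 23555032 to 23555807) stood at 228, 180.0 and 176 CPM in wild type endoderm and 292, 228 and 218 in arid4b∆ endoderm. In mesoderm its values were 202, 193 and 156 CPM against 317, 294 and 239. Wild type endoderm library 1 lay within the range of the arid4b∆ libraries, and the mesoderm groups did not overlap. Its log2 fold change was 0.33 ± 0.13 in endoderm (edgeR adjusted p = 0.111) and 0.63 ± 0.14 in mesoderm (adjusted p = 0.00200). Hist1h1c, another somatic H1, likewise passed the test in mesoderm (log2 fold change 0.57, edgeR adjusted p = 0.00587) and not in endoderm (0.34, adjusted p = 0.121). Its mesoderm call was lost without wild type mesoderm library 3, with an adjusted p of 0.0507.

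Hist1h1a and Hist1h1b are among the members that share no 50-base word of coding sequence with another gene. Hist1h1a rose by 0.59 ± 0.14 in endoderm (log2, edgeR adjusted p = 0.00614, and 0.0561 without wild type endoderm library 2) and 0.71 ± 0.14 in mesoderm (adjusted p = 9.19e-04), with no overlap between groups in either lineage. Hist1h1b rose by 0.38 ± 0.12 (adjusted p = 0.0395) and 0.39 ± 0.12 (adjusted p = 0.0261). Its endoderm call was lost without wild type library 2 or 3 or arid4b∆ library 1 of endoderm (adjusted p of up to 0.215), and its mesoderm call without wild type library 3 or arid4b∆ library 1 or 2 of mesoderm (up to 0.162). The values of Hist1h1a, Hist1h1b and Hist1h1c are given after they were seen, to complete the somatic H1 genes.

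The coding starts of Hist1h1e and Hist1h1d are printed to show how far H1 copies differ, with the 13 of 60 differing bases in capitals. Words of 50 bases found in another gene made up 25.4% of the coding sequence of Hist1h1e and 26.4% of that of Hist1h1d.

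Hist1h1e: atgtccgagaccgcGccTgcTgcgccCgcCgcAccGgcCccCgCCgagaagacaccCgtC
Hist1h1d: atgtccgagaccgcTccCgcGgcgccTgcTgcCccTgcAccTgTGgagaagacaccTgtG

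Of the H2A genes, 17 of 19 rose in endoderm and 17 of 19 in mesoderm, among them Hist1h2aa, tested only through its arid4b∆ counts. The genes Hist2h2aa1 and Hist2h2aa2 on chromosome 3 (Hist2h2aa1 at 96245497 to 96246052) carried nearly the same reads. Hist2h2aa1 stood at 424, 382 and 307 CPM in wild type endoderm and 611, 539.9 and 425 in arid4b∆ endoderm. Mesoderm libraries held 408, 388 and 341 CPM in wild type and 568, 628 and 479 in arid4b∆. The endoderm groups nearly met, at wild type library 1 and arid4b∆ library 3, and the mesoderm groups stood further apart. It rose by 0.50 ± 0.14 in endoderm (log2, edgeR adjusted p = 0.0172) and 0.56 ± 0.14 in mesoderm (adjusted p = 0.00558). The endoderm call was lost without wild type library 2 or 3 or arid4b∆ library 1 or 2 of endoderm, with an adjusted p of up to 0.113.

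Hist1h2af (chromosome 13, 23533875 to 23534378) stood at 113, 79.2 and 101 CPM in wild type endoderm and 200.5, 138 and 133 in arid4b∆. In mesoderm the values were 111, 99.4 and 73.6 CPM against 181, 177 and 144. No arid4b∆ library fell to the wild type range in either lineage. The rise was 0.69 ± 0.16 in endoderm (log2, edgeR adjusted p = 0.00575) and 0.84 ± 0.16 in mesoderm (adjusted p = 9.04e-04), and the endoderm call was lost without wild type library 2 (adjusted p = 0.0633). Hist1h2ak (chromosome 13, 21753377 to 21753912) stood at 59.9, 51.4 and 44.1 CPM against 79.3, 72.1 and 62.7 in endoderm, and at 49.9, 43.8 and 41.1 against 96.7, 78.5 and 73.0 in mesoderm. Both pairs of groups were separate. Its rise was 0.46 ± 0.13 in endoderm (log2, edgeR adjusted p = 0.0182) and 0.88 ± 0.13 in mesoderm (adjusted p = 5.38e-05), and the difference between the lineages was not called (log2 −0.43, adjusted p = 0.380, the smallest of all members). Its endoderm call was lost without wild type library 2 or 3 or arid4b∆ library 1 or 2 of endoderm, with an adjusted p of up to 0.109.

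Hist3h2a, the H2A gene of the Hist3 cluster (chromosome 11, 58954685 to 58955192), had the smallest adjusted p of the members in endoderm. It stood at 62.8, 57.1 and 42.4 CPM in wild type endoderm and 109.5, 94.0 and 77.5 in arid4b∆. Its levels in mesoderm were 71.3, 77.3 and 46.0 CPM in wild type and 123, 104 and 88.0 in arid4b∆. All arid4b∆ libraries were above all wild type libraries of their lineage. The rise was 0.78 ± 0.17 in endoderm (log2, edgeR adjusted p = 0.00334, at most 0.0306 under any alternative) and 0.74 ± 0.17 in mesoderm (adjusted p = 0.00377, at most 0.0425). Every 50-base word of its coding sequence is also annotated in a transcript of Trim17, so reads of either gene may be counted for the other.

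The H2A genes not called in mesoderm were Hist2h2ac and Hist2h2ab. Hist2h2ac (chromosome 3, 96220413 to 96220880) had 67.2, 47.5 and 50.004 CPM in wild type endoderm and 82.8, 77.0 and 64.5 in arid4b∆. In mesoderm it had 68.1, 58.7 and 43.6 CPM against 72.1, 79.1 and 64.8. Wild type library 1 was within the arid4b∆ range in both lineages. Its difference passed the test in endoderm (log2 0.45 ± 0.15, edgeR adjusted p = 0.0448) and not in mesoderm (0.36 ± 0.15, adjusted p = 0.104), and the difference between the lineages was not called (adjusted p = 0.941). The endoderm call was lost with DESeq2 and without wild type library 2 or 3 or arid4b∆ library 1 or 2 of endoderm, with an adjusted p of up to 0.243. Hist2h2ab (chromosome 3, 96219885 to 96220354), counted at 3.67 to 7.11 CPM in all libraries, was not called in either lineage, with a fold of 1.31 in endoderm and 1.00 in mesoderm.

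The H2B genes rose in 15 of 18 tested cases in endoderm and 17 of 18 in mesoderm. Hist1h2bq (chromosome 13, 21806412 to 21810199), whose counts equal those of Hist1h2br, stood at 738, 522 and 586 CPM in wild type endoderm and 1093, 798 and 805 in arid4b∆. In mesoderm the values were 670.4, 625 and 498 CPM in wild type and 1011, 1001 and 856 in arid4b∆. Groups were separate in both lineages. The rise was 0.55 ± 0.14 in endoderm (log2, edgeR adjusted p = 0.0127) and 0.68 ± 0.14 in mesoderm (adjusted p = 0.00170), and the endoderm call was lost without wild type library 2 or 3 or arid4b∆ library 1, with an adjusted p of up to 0.102.

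Hist1h2bk (chromosome 13, 22035821 to 22036320), whose promoter stretch with its octamer is printed above, stood at 296, 198 and 237 CPM in wild type endoderm and 449, 297 and 339 in arid4b∆. In mesoderm it stood at 264, 254 and 183 CPM against 424, 389 and 368. The endoderm groups touched at 296 and 297 CPM without overlapping, and the mesoderm groups lay far apart. The rise was 0.57 ± 0.15 in endoderm (log2, edgeR adjusted p = 0.0165) and 0.76 ± 0.16 in mesoderm (adjusted p = 0.00144), and the endoderm call was lost without the same 3 libraries as for Hist1h2bq and with DESeq2, with an adjusted p of up to 0.129. Hist2h2bb (chromosome 3, 96269700 to 96270192) was not called in either lineage: it stood at 142 to 179.5 CPM in wild type and 162 to 233 in arid4b∆ endoderm, and at 131 to 189.6 against 182 to 202 in mesoderm, with overlap in both. The untested H2B gene Hist2h2be had 3 to 5 counts per library in wild type endoderm, 3 to 6 in arid4b∆ endoderm, 2 to 5 in wild type mesoderm and 6 to 8 in arid4b∆ mesoderm.

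Hist3h2ba, the H2B gene of the Hist3 cluster (chromosome 11, 58948911 to 58949372), stood at 24.7, 20.6 and 21.5 CPM in wild type endoderm and 44.7, 33.7 and 34.8 in arid4b∆. Mesoderm values were 23.4, 21.1 and 12.8 CPM against 54.5, 35.7 and 34.7. The groups were separate in both lineages. It rose 1.69-fold in endoderm (log2 0.75 ± 0.19, edgeR adjusted p = 0.0104, reaching 0.0724 without wild type endoderm library 2) and 2.28-fold in mesoderm (log2 1.19 ± 0.20, adjusted p = 2.55e-04). The annotated pseudogene Hist3h2bb-ps (chromosome 11, 58954048 to 58954512), counted at 2.86 to 16.2 CPM, rose 2.94-fold in mesoderm (edgeR adjusted p = 0.00111) and had a fold of 1.60 in endoderm that was not called (adjusted p = 0.125). The 50-base words of these genes are shared with each other and with no other gene, at 37.7% of Hist3h2ba and 30.0% of Hist3h2bb-ps.

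Of the H3 genes, 10 of 12 rose in endoderm and 12 of 12 in mesoderm. All 9 Hist1 H3 genes rose in both lineages without overlap between groups, with log2 fold changes of 0.61 to 0.70 in endoderm and 0.76 to 0.81 in mesoderm. Hist1h3g (chromosome 13, 23535418 to 23535909) stood at 371, 283 and 299 CPM in wild type endoderm and 634, 439 and 429.6 in arid4b∆. The mesoderm levels were 355, 352 and 227 CPM against 609.8, 503 and 471. The lowest arid4b∆ library exceeded the highest wild type library in each lineage. It rose by 0.66 ± 0.16 in endoderm (log2, edgeR adjusted p = 0.00963) and 0.77 ± 0.17 in mesoderm (adjusted p = 0.00201), and its endoderm call was lost without wild type library 2 or arid4b∆ library 1, with an adjusted p of up to 0.0700.

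Of the 3 Hist2 H3 genes, which encode the H3.2 form, 1 was called in endoderm and 3 in mesoderm. Hist2h3c1 (chromosome 3, 96246685 to 96247348), whose counts equal those of Hist2h3c2, stood at 591, 461 and 461 CPM in wild type endoderm and 758, 599 and 590.4 in arid4b∆. In mesoderm it stood at 484, 500.2 and 366 CPM against 719, 719 and 607. Wild type endoderm library 1 lay just above arid4b∆ library 3, while the mesoderm groups were separate. The difference was 0.36 ± 0.13 in endoderm (log2, edgeR adjusted p = 0.0748) and 0.60 ± 0.13 in mesoderm (adjusted p = 0.00248). Hist2h3b (chromosome 3, 96268654 to 96269155) rose by 0.43 ± 0.14 in endoderm (log2, edgeR adjusted p = 0.0474), where wild type library 1, at 235 CPM, met the arid4b∆ range of 235 to 329, and by 0.71 ± 0.14 in mesoderm (adjusted p = 0.00123). Its endoderm call was lost without wild type endoderm library 2 or 3, arid4b∆ endoderm library 1 or arid4b∆ mesoderm library 2, with an adjusted p of up to 0.242. A difference between Hist1 and Hist2 genes was not tested.

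Of the H4 genes, 9 of 13 rose in endoderm and 13 of 13 in mesoderm. Hist1h4h (chromosome 13, 23531044 to 23531478) stood at 441, 275 and 347 CPM in wild type endoderm and 656, 426 and 467 in arid4b∆. Its levels in mesoderm were 386, 353 and 237 CPM against 627, 545 and 467. Wild type endoderm library 1 was above arid4b∆ library 2, and the mesoderm groups were separate. The difference was 0.54 ± 0.18 in endoderm (log2, edgeR adjusted p = 0.0510) and 0.75 ± 0.18 in mesoderm (adjusted p = 0.00519).

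Hist1h4a (chromosome 13, 23760795 to 23761249) showed the same layout, with 433, 277 and 342 CPM against 628, 411 and 452 in endoderm, and 372, 333 and 229 against 617, 531 and 452 in mesoderm. Wild type library 1 again overlapped the arid4b∆ range in endoderm only. Its difference was 0.50 ± 0.18 in endoderm (log2, edgeR adjusted p = 0.0667) and 0.78 ± 0.18 in mesoderm (adjusted p = 0.00346). The standard errors of these 2 genes were above the median of all members, 0.16. The starts of both coding sequences are shown because they encode the same protein type with 8 of 60 bases different, in capitals.

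Hist1h4h: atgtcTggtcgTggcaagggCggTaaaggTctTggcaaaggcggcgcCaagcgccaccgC
Hist1h4a: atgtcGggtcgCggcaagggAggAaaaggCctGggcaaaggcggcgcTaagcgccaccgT

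The H4 genes outside Hist1 shared little sequence with other copies. Hist2h4 (chromosome 3, 96262934 to 96263317) shared 6.08% of its 50-base words with another gene, and Hist4h4 shared 0%. Hist2h4 stood at 43.4, 37.7 and 39.8 CPM in wild type endoderm and 75.3, 56.2 and 56.8 in arid4b∆. In mesoderm libraries the levels were 37.7, 47.9 and 23.6 CPM against 94.8, 68.9 and 57.1. Groups were separate in both lineages, and the arid4b∆ libraries numbered 1 were the highest. It rose 1.55-fold in endoderm (log2 0.63 ± 0.19, edgeR adjusted p = 0.0278) and 2.16-fold in mesoderm (log2 1.11 ± 0.20, adjusted p = 3.38e-04). The endoderm call was lost without wild type library 2 or 3 or arid4b∆ library 1 of endoderm, with an adjusted p of up to 0.131.

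Hist4h4 (chromosome 6, 136803993 to 136804431) stood at 67.5, 50.6 and 56.8 CPM in wild type endoderm and 88.0, 71.1 and 68.0 in arid4b∆. In mesoderm it stood at 65.6, 73.7 and 44.9 CPM against 109, 86.8 and 77.3. All arid4b∆ libraries were above all wild type libraries in each lineage. It missed the threshold in endoderm (log2 0.38 ± 0.16, edgeR adjusted p = 0.122) and passed it in mesoderm (0.62 ± 0.16, adjusted p = 0.00844), where the call was lost without wild type library 3 or arid4b∆ library 1, with an adjusted p of up to 0.0871.

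**Figure D3:**
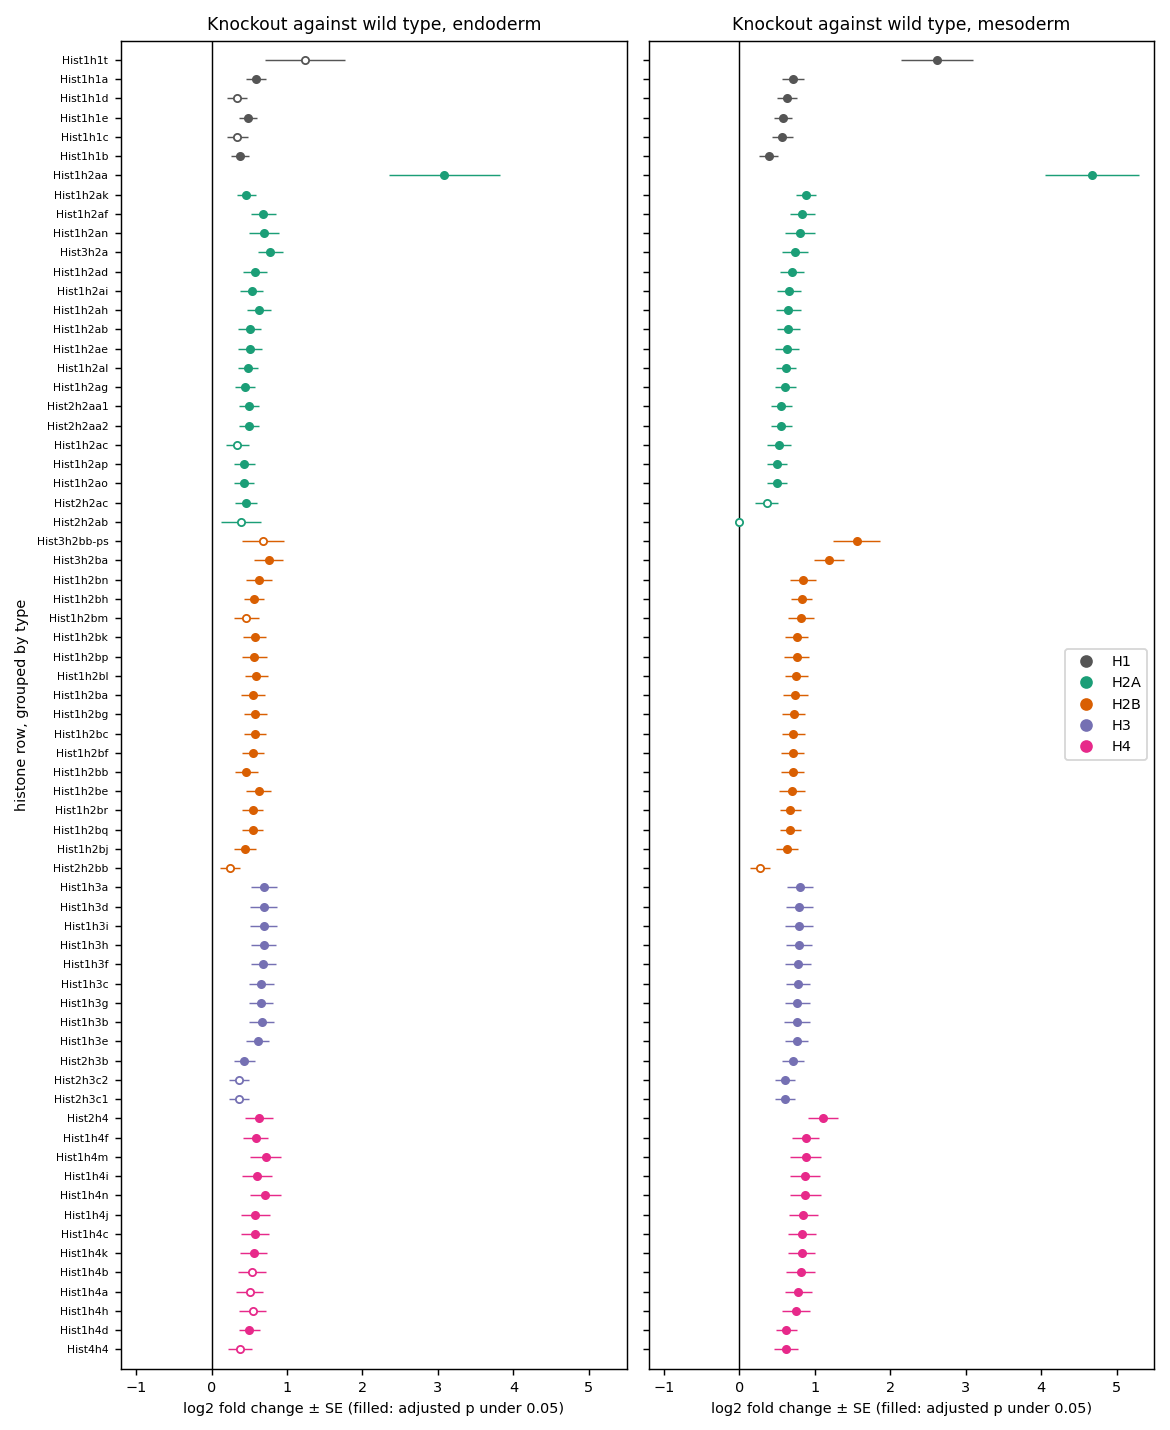
Log2 fold change of arid4b∆ against wild type with its standard error for each of the 68 tested members, by histone type, in endoderm and in mesoderm; filled points passed the test at an adjusted p under 0.05. Apart from Hist1h2aa and Hist1h1t in both lineages and Hist2h2ab, Hist2h4, Hist3h2ba and Hist3h2bb-ps in mesoderm, the points lie between 0.25 and 0.88.

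Counts of 3 histone genes known from the testis are given singly. Hist1h2aa, which encodes the testis H2A form TH2A (chromosome 13, 23934437 to 23934913), had 1, 1 and 0 counts in wild type endoderm and 8, 10 and 4 in arid4b∆ endoderm. In mesoderm it had 1, 0 and 1 counts in wild type and 18, 16 and 19 in arid4b∆. The gene was nearly uncounted in all wild type libraries and was counted in every arid4b∆ library. Pooled counts gave a ratio of 9.86 in endoderm (exact 95% interval 2.42 to 86.5) and 29.8 in mesoderm (7.85 to 252), intervals that cover counting error only.

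Hist1h2aa passed the filter on low counts through the 3 arid4b∆ mesoderm libraries alone, so its calls (higher in arid4b∆ in both lineages, and lower in endoderm than in mesoderm within arid4b∆) support nothing and no p is given for it. The start of its coding sequence is printed beside that of Hist1h2af, an H2A gene of the same cluster, with 13 of 60 differing bases in capitals. Words of 50 bases shared with another gene made up 23.8% of its coding sequence, against 94.5% for Hist1h2af.

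Hist1h2aa: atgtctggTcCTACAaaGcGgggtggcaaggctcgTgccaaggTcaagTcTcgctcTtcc
Hist1h2af: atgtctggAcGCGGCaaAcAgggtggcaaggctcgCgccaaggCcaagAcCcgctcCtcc

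Hist1h1t, which encodes the testis linker histone H1t (chromosome 13, 23695811 to 23696545), was singled out after its values were seen. It had 3, 8 and 3 counts in wild type endoderm and 18, 10 and 8 in arid4b∆, and in mesoderm 5, 4 and 4 against 28, 27 and 19. On the CPM scale the groups did not overlap in either lineage. The ratio of pooled counts was 2.30 in endoderm (exact 95% interval 1.21 to 4.63, counting error only) and 6.40 in mesoderm (3.52 to 12.6). It passed the filter through 1 arid4b∆ endoderm and 3 arid4b∆ mesoderm libraries and no wild type library, so its test (called in mesoderm, not in endoderm) supports nothing and no p is given. Its coding sequence shared no 50-base word with another gene.

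Hist1h2ba, the testis H2B form TH2B, lies next to Hist1h2aa and was also looked at after the values were seen. It was counted in every library, at 72.9 to 98.0 CPM in wild type and 96.3 to 146 in arid4b∆ endoderm, which overlapped, and at 64.3 to 94.8 against 109.8 to 158 in mesoderm, which did not. Its log2 fold change of 0.55 ± 0.16 in endoderm (edgeR adjusted p = 0.0257) and 0.75 ± 0.16 in mesoderm (adjusted p = 0.00235) lay close to the median of all members, and its endoderm call was lost without wild type library 2 or 3 or arid4b∆ library 1 or 2 of endoderm (adjusted p of up to 0.140). Of its 50-base words, 38.2% were shared with other H2B genes.

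**Figure D4:**
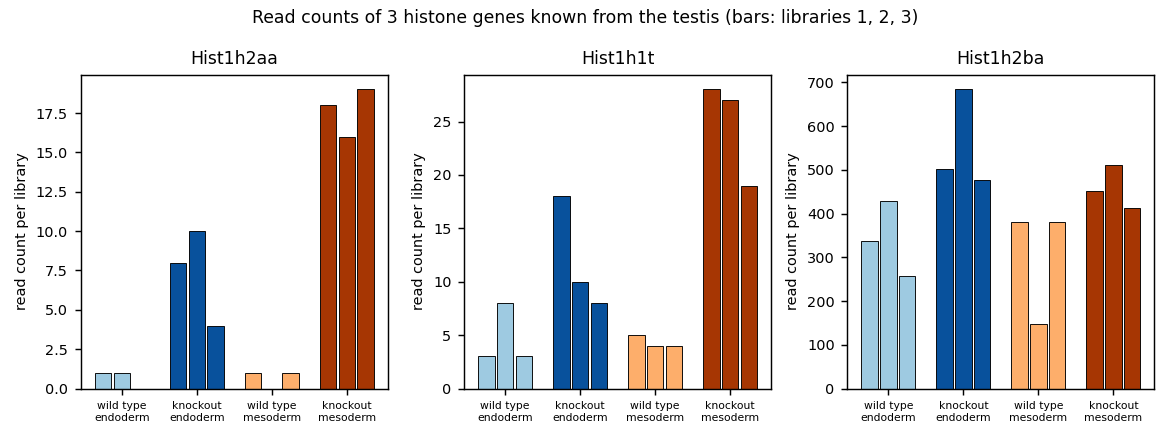
Read counts of Hist1h2aa, Hist1h1t and Hist1h2ba in each library, with bars for libraries 1, 2 and 3 of each group and a separate axis from 0 for each gene. Hist1h2aa rises from at most 1 count in wild type to 16 to 19 in arid4b∆ mesoderm, Hist1h1t from at most 5 to 19 to 28 there, and Hist1h2ba was counted 148 to 430 times in wild type and 412 to 684 times in arid4b∆ libraries.

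Because the copies are so alike, values were also set beside the share of each coding sequence that can be found elsewhere. The median identity between coding sequences of equal length was 96.4% in H2A, 95.7% in H2B, 97.6% in H3 and 93.9% in H4. Over 50% of the 50-base words were shared with another gene for 55 tested members, which included every tested H3 gene. Of these 55, 46 were called higher in endoderm and 52 in mesoderm, with median log2 fold changes of 0.56 and 0.75.

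The 5 members with at most 10% shared were Hist1h1a, Hist1h1b, Hist1h1t, Hist2h4 and Hist4h4. Of these, 3 were called higher in endoderm and 5 in mesoderm (Hist1h1t among the latter, tested only through its arid4b∆ counts). The groups of the 5 members did not overlap in either lineage, and their median log2 fold changes were 0.59 and 0.71. Hist1h1t is included in these medians, and its own lack of overlap lends no support. The 8 members between these bounds were called in 5 and 8 cases, with medians of 0.52 and 0.69. Both counts and both medians include Hist1h2aa, which was tested only through its arid4b∆ counts. The medians of the 3 classes were close, and differences between the classes were not tested. Neither the read length nor the treatment of reads that match several genes is stated in the sources used, so the word length is a choice and not a property of the reads.

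**Figure D5:**
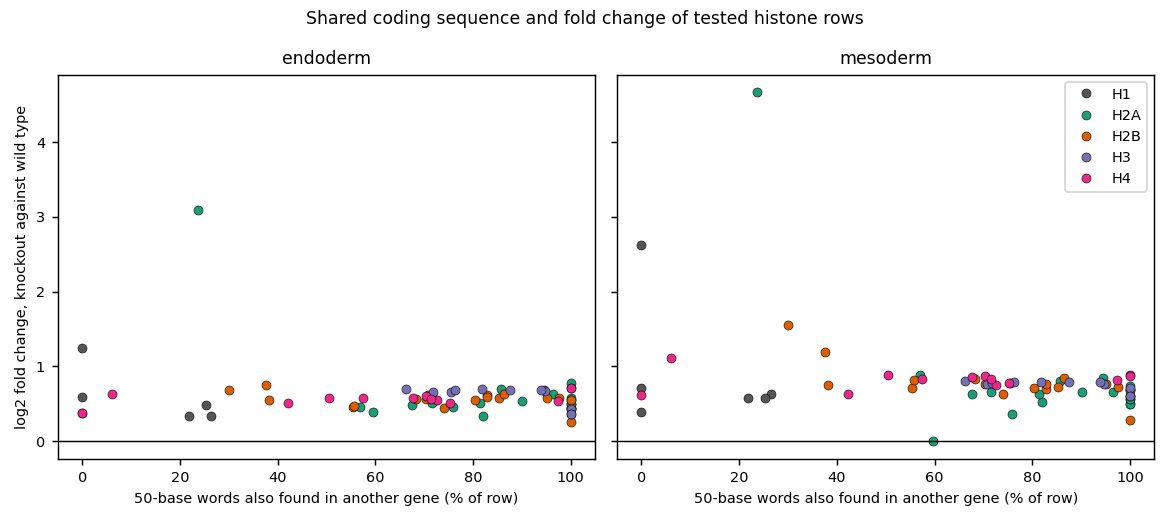
Log2 fold change of arid4b∆ against wild type for each tested member against the percentage of its 50-base words that are also found in another gene, coloured by histone type, for endoderm and mesoderm. Members with few shared words and members with all words shared lie at similar heights, apart from Hist1h2aa and Hist1h1t with high values at few shared words.

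Whether the genotype difference itself differed between the lineages was tested directly. For the difference of the genotype effects, endoderm minus mesoderm, 0 of 68 members were called by edgeR's quasi-likelihood test, where 1.40% of all tested genes were called; 1 member had an unadjusted p under 0.05, and DESeq2 called 0. The members' median was −0.15 on the log2 scale, and 65 of the 68 values lay below 0. A p that misses the threshold does not show that the effects were equal, and each lineage's effect is a difference of the same libraries as above.

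The lineages were also compared within each genotype. For endoderm against mesoderm in wild type, 0 of 68 were called (9.84% of all tested genes, 4.41% higher and 5.43% lower), 0 had an unadjusted p under 0.05 and DESeq2 called 0. The median log2 difference was 0.05, with a range of −0.21 to 0.58. In arid4b∆ libraries the median was −0.09, and 1 of 68 was lower in endoderm, where 1.86% of all tested genes were called, 0.954% higher and 0.902% lower. Of the members, 2 had an unadjusted p under 0.05, and DESeq2 called 0. The member called was Hist1h2aa, which passed the filter through arid4b∆ mesoderm alone, the group where it was high, so the call supports nothing; of the other 66 tested members 0 were called. Hist1h2aa had 0.809 to 2.32 CPM in arid4b∆ endoderm and 4.92 to 5.07 in arid4b∆ mesoderm. The count over all 68 was 0 without any one of arid4b∆ endoderm library 2 or 3 or arid4b∆ mesoderm library 1, 2 or 3, and 2 without arid4b∆ endoderm library 1 or wild type mesoderm library 3.

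Genes of related functions were read from lists. Of 11 replacement histone genes, whose polyadenylated mRNAs are made outside S phase as well, 0 rose and 2 fell in endoderm, and 0 rose and 5 fell in mesoderm. H2afy, which encodes macroH2A1, fell by 2.17 ± 0.20 in endoderm (log2, edgeR adjusted p = 7.32e-08) and by 2.23 ± 0.20 in mesoderm (adjusted p = 7.40e-08), from means of 23.3 and 32.6 CPM to 5.27 and 6.82. H2afy2, which encodes macroH2A2, fell by 1.30 ± 0.17 (adjusted p = 9.94e-06) and 1.34 ± 0.21 (adjusted p = 8.11e-05). H1fx, a linker histone gene outside the clusters, fell in mesoderm by 0.77 ± 0.19 (edgeR adjusted p = 0.00563).

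Of 19 tested factors for histone mRNA transcription, processing and decay, 3 rose and 0 fell in endoderm and 3 rose and 0 fell in mesoderm, with median log2 fold changes of 0.12 and 0.24. Upf1, a helicase that acts in histone mRNA decay, rose in both (log2 0.33 ± 0.09, edgeR adjusted p = 0.0215, and 0.53 ± 0.10, adjusted p = 3.99e-04). Pou2f1, which binds the octamer, rose in endoderm (0.32 ± 0.10, adjusted p = 0.0439), as did Lsm1, a decay factor (0.62 ± 0.20, adjusted p = 0.0449). Papd5 and Srrt rose in mesoderm by 0.52 ± 0.13 (edgeR adjusted p = 0.00759) and 0.32 ± 0.09 (adjusted p = 0.0163).

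Of 16 histone chaperone genes, 2 rose and 1 fell in endoderm, and 1 rose and 1 fell in mesoderm. Daxx, a chaperone of the H3.3 form, rose in both lineages (log2 0.58 ± 0.14, edgeR adjusted p = 0.00913, and 0.69 ± 0.15, adjusted p = 0.00214), and Asf1b, a chaperone of new H3 and H4, rose in endoderm (0.83 ± 0.21, adjusted p = 0.0117). Rbbp7, a histone-binding subunit of several complexes, fell by 0.96 ± 0.12 in endoderm (log2, edgeR adjusted p = 5.24e-06) and by 1.25 ± 0.12 in mesoderm (adjusted p = 1.69e-07).

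Of 34 S phase genes, 6 rose and 0 fell in endoderm and 8 rose and 1 fell in mesoderm, with medians of 0.16 and 0.22 on the log2 scale. In endoderm the smallest adjusted p-values were those of Cdt1, a licensing factor (log2 0.57 ± 0.11, edgeR adjusted p = 0.00127), Pola1, the DNA polymerase alpha catalytic subunit (0.48 ± 0.11, adjusted p = 0.00373), and Mcm5, a subunit of the replicative helicase (0.45 ± 0.10, adjusted p = 0.00570). In mesoderm they were those of Mcm5 (0.60 ± 0.11, adjusted p = 3.49e-04), Pole (0.51 ± 0.10, adjusted p = 5.67e-04) and Gins2 (0.79 ± 0.18, adjusted p = 0.00357), while Lig1 fell by 0.97 ± 0.10 (adjusted p = 6.30e-07). Of 20 genes of G2 and M phase, 1 rose in endoderm (Bub1b), and 1 rose (Plk1) and 1 fell (Ccnb2) in mesoderm. Of 10 tested cell cycle inhibitor genes, 1 rose in endoderm (Cdkn2a) and 3 fell in mesoderm (Cdkn1c, Trp53 and Rbl1). The part of S phase genes in the members' differences was not tested. Each list's share with a call stands beside 12.7% of all tested genes called in endoderm and 19.1% in mesoderm. By direction, 5.78% were higher and 6.92% lower in endoderm, and 8.93% and 10.2% in mesoderm. Shares called higher (endoderm, mesoderm) were 17.6% and 23.5% for S phase genes and 15.8% and 15.8% for histone mRNA factors. They were 12.5% and 6.25% for chaperones, 5% and 5% for G2 and M genes, 10% and 0% for inhibitors and 0% for replacement histones. These shares were not tested.

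Neighbouring genes were examined for the Hist1 span. Of 4 tested genes that are not histone genes and lie inside the Hist1 span, 0 rose, 1 fell in endoderm and 2 fell in mesoderm. Zfp322a, a zinc finger gene, fell by 0.60 ± 0.12 in endoderm (log2, edgeR adjusted p = 0.00194) and by 1.23 ± 0.13 in mesoderm (adjusted p = 6.11e-07). Over the 410 other tested genes of chromosome 13, 15 rose and 26 fell in endoderm, and 22 rose and 51 fell in mesoderm.

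Other RNAs without a poly(A) tail were set beside the members. Of 17 listed, 9 were tested, of which 0 were called in endoderm and 1, the telomerase RNA Terc, rose in mesoderm (log2 0.73 ± 0.22, edgeR adjusted p = 0.0244). Their median log2 fold change was 0.06 in endoderm and 0.30 in mesoderm, against 0.56 and 0.74 for the members. These medians were the values of Terc in endoderm and of Rnu11 in mesoderm. Rnu11, at 0.615 to 3.91 CPM, and Rnu12 were counted near the floor of 3 counts. Rpph1, Rmrp and Malat1, the RNAs with the highest levels, had 0.31, 0.25 and −0.07 in endoderm and 0.35, 0.65 and −0.08 in mesoderm. Rpph1, the RNA of RNase P, stood at 2303, 1402 and 1746 CPM in wild type and 3158, 1683 and 1906 in arid4b∆ endoderm, and at 2308, 2366 and 1432 against 2888, 2378 and 2516 in mesoderm. It overlapped between groups in endoderm and not in mesoderm, was not called in either lineage (edgeR adjusted p = 0.388 and 0.265), and had library 1 as the highest in 3 of the 4 groups, as the members had in all.

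The summed member level per unit of Rpph1, a measure chosen after the data were seen, was 6.93 to 8.22 in wild type and 7.68 to 10.3 in arid4b∆ endoderm, and 5.93 to 7.01 against 7.32 to 8.94 in mesoderm. The ratio of arid4b∆ to wild type means was then 1.21 in endoderm, where the groups overlapped, and 1.26 in mesoderm, where they did not. Rmrp, the RNA of RNase MRP, had a ratio of 1.56 in mesoderm (log2 0.65 ± 0.24, edgeR adjusted p = 0.0596) and 1.19 in endoderm (adjusted p = 0.563). The part that the capture of RNAs without a poly(A) tail had in the members' differences was not tested.

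Markers of fibroblasts or feeder cells were called higher more often than all tested genes in arid4b∆ endoderm, and at a similar share in mesoderm. Of 11 tested of 14 listed, 5 rose and 0 fell in endoderm (45.5%, against 5.78% of all tested genes called higher). In mesoderm, 1 rose and 0 fell (9.09%, against 8.93%). Median log2 fold changes of the 11 markers were 1.84 and 0.99. Their summed level was 231 to 321 CPM in wild type and 327 to 774 in arid4b∆ endoderm, and 470 to 928 against 384 to 864 in mesoderm. The untested markers Lum, Dcn and S100a4 had 0, 8 and 0 counts in wild type endoderm and 5, 37 and 2 in arid4b∆ endoderm over 3 libraries, and 1, 14 and 3 against 2, 20 and 5 in mesoderm. Their part in the histone result was not tested.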

How the data were processed

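Total RNA was rRNA-depleted and made into directional libraries that were sequenced on an Illumina HiSeq instrument, per the labels' protocols. The deposited matrix holds whole-number read counts per gene and library, and per the submitters' processing notes the authors used STAR, DESeq2 and mm10. The sources used here name neither the counting program and its annotation nor its use of strand or its treatment of reads with several matches, and reads may be shared between copies or overlapping genes. The members and gene lists were chosen with earlier results of these data known.

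Of 19680 genes, 347 had no symbol, and 346 of these were named from RefSeq by identifier. Left out were 27 genes with a value that was not a whole number in the column of wild type endoderm library 1 (26 of them dates), none of which is a member. Rn45s, with 79.7% to 82.4% of each library, stayed out of library sizes and tests. Mir6236 and Lars2, which hold ribosomal sequence, took 49.7% to 69.5% of the rest and were kept. No 2 libraries had identical counts.

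Counts were analysed with edgeR 4.0.16 in R 4.3.3: trimmed mean of M values, filterByExpr (minimum count 10), 1 fit of 4 group means over 12 libraries, and Benjamini-Hochberg adjustment over 11635 tested genes at 0.05. SE was obtained as the size of the log2 fold change over the root of the test's F. A floor of 3 counts equals 0.505 to 1.55 CPM. Reads had no molecular identifiers, so exact 95% intervals of count ratios cover counting error only. Alternatives used DESeq2 1.42.0, other size factors, no filter, equal rows counted once, a replicate block, and omission of each library in turn. The test was checked on simulated counts with 200 changed genes. It recovered 48% of the 1.5-fold changes in endoderm and 28% in mesoderm, and 89% and 88% of the 3-fold changes. False calls were 5.52% and 3.33% of all calls. A change of about 1.5-fold can therefore go uncalled.

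Values per library are given for the 2 members with the highest mean CPM in each type, the 2 called members with the smallest adjusted p in each direction of a comparison, and the tested Hist2 to Hist4 genes; others were named after their values were seen, as stated there. From the other lists, up to 3 called genes per direction with the smallest adjusted p are named. This was not done for the lineage panel, the fibroblast markers or the non-histone genes of chromosome 13. Transcripts came from GENCODE vM21, positions, promoters and pseudogene status from RefSeq (GRCm38.p6) or GENCODE. A shared word is a run of 50 bases of coding sequence also found in a transcript of another gene. Samples were grouped by their titles.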

Additional observations from a re-analysis of the deposited data

How the results depend on the processing

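The number of members higher in arid4b∆ endoderm (54 of 68 tested as reported) was 55 with DESeq2 size factors, 55 without Mir6236 and Lars2, 38 with DESeq2 and 58 in a fit of the 2 groups alone. It was 64 without the filter, where Hist2h2be was tested as well, and 53 of 66 with equal rows counted once. Leaving out 1 library at a time gave 1 to 61. The mesoderm count (65 as reported) was 56 to 66 with 1 library left out and 63 to 66 otherwise. The summed level kept a ratio of 1.29 to 1.62 in endoderm and 1.47 to 1.74 in mesoderm with 1 library left out. The difference between lineages in effect and the wild type lineage comparison stayed at 0 calls in all alternatives run. In arid4b∆ endoderm against mesoderm the 1 call became 2 without the filter, 0 with DESeq2, and 0 to 2 with 1 library left out. Without replicate 1 of every group, chosen after seeing the data, the endoderm count was 58, the mesoderm count 66 and the lineage count in arid4b∆ 2. With the replicate number as a block, the counts were 64, 66, 0, 0 and 2. Same-numbered libraries correlated by 0.0132 to 0.171 in their deviations, which was over 0.1 in 2 of 6 pairs. Not every library correlated best with its own number. In every group, however, the Rn45s share fell from library 1 to library 3, and the normalisation factor was highest in library 3. The summed member level was highest in library 1 of every group. Whether the numbers pair the libraries is therefore not settled, and the main fit has no block. The fit of 2 groups alone does not apply to the difference between lineages. The causes of the lost endoderm calls were not tested. Depth limits Hist1h2aa, Hist1h1t and Hist2h2be, with counts near the floor of 3 in wild type libraries.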
